A study of Drosophila melanogaster with 2 samples.

Results

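The genes that encode subunits of the proteasome were examined in a map of the regions recovered with a tagged Buttonless (btn) protein, a homeodomain transcription factor of Drosophila melanogaster. Members were the protein-coding genes whose symbol begins with Prosalpha, Prosbeta, Rpn or Rpt followed by a number, and 48 of the 13986 protein-coding genes of the annotation met this rule. Of these, 25 encode the core particle and 23 the regulatory particle, and 16 are duplicated copies whose symbol carries a T or an R after the number. Chromatin immunoprecipitation followed by sequencing was done with an antibody against GFP on whole embryos of pooled sex, collected 0 to 14 hours after egg laying. All embryos came from the btn-GFP line, which stably expresses btn with eGFP at its C-terminus. There was 1 group with 2 biological replicates, which the labels number 2 and 3, and no other genotype, stage or treatment. Both replicates are separate collections of the same line. Embryos without the tag were not analysed here, so what the antibody recovers apart from btn-eGFP is not measured, and a whole embryo mixes cells that express btn with cells that do not. Depth is unknown, because the lists give regions and no read counts.

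The proteasome is the protease that degrades proteins tagged with ubiquitin in every eukaryotic cell. Its core particle is a barrel with outer rings of Prosalpha subunits, which control entry, and inner rings of Prosbeta subunits, of which Prosbeta1, Prosbeta2 and Prosbeta5 cut peptide bonds. The regulatory particle caps the barrel: a ring of Rpt ATPases unfolds the substrate, and the Rpn subunits bind ubiquitin, remove it and hold the cap together. Several of the duplicated copies in Drosophila are known to be expressed in the testis.

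A minority of proteasome genes, as of other protein-coding genes, had a peak near a start site. An optimal peak is a region that passed the authors' reproducibility threshold between replicates, and a candidate is a region of the longer list from the pooled replicates that entered that step. The 2153 optimal peaks were the strongest of the 30000 pooled candidates. A gene was given a candidate or a peak when the summit, its highest point, lay within 1 kb of any of its transcription start sites (TSSs). Of the 48 members, 32 had a pooled candidate and 4 had an optimal summit, namely Rpn5, Rpn13, Rpn3 and Rpn8. The 4 of 32 make 12.5%, against 1507 of 8630 other protein-coding genes with a candidate (17.5%). Counted over all genes, with or without a candidate, the shares were 8.33% of members and 10.8% of the others. Without the duplicated copies the order over all genes turned, with 4 of 32 members (12.5%) above the 10.8% of the others. Among genes with a candidate it did not turn, with 4 of 29 members (13.8%) against 17.5%. The ratio of the share in members to that in other genes was 0.716 among genes with a candidate. Genes are not replicates, and the difference between these shares was not tested.

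All 4 peaks belonged to non-ATPase subunits of the regulatory particle. Of the 12 Rpn genes that are not duplicated copies, every gene had a candidate and 4 had an optimal summit. None of the 6 Rpt ATPase genes had an optimal summit, although each had a candidate. In the core particle 14 of 25 genes had a candidate and 0 had an optimal summit, against 4 of 18 in the regulatory particle (22.2%). The background of 17.5% lies between these shares, and whether core and regulatory particle differ was not tested. Among the duplicated copies, 3 of 16 had a candidate (18.8%), against 29 of 32 of the other members (90.6%) and 61.9% of other protein-coding genes. The copies with a candidate were Prosalpha4T1, Prosalpha6T and Prosbeta5R1. The 13 copies without a candidate were Prosalpha1R, Prosalpha3T, Prosalpha4T2, Prosbeta2R1, Prosbeta2R2, Prosbeta4R1, Prosbeta4R2, Prosbeta5R2, Rpn12R, Rpn13R, Rpt3R, Rpt4R and Rpt6R. The other 3 members without one were Prosalpha1, Prosbeta4 and Prosbeta6.

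**Figure D1:**
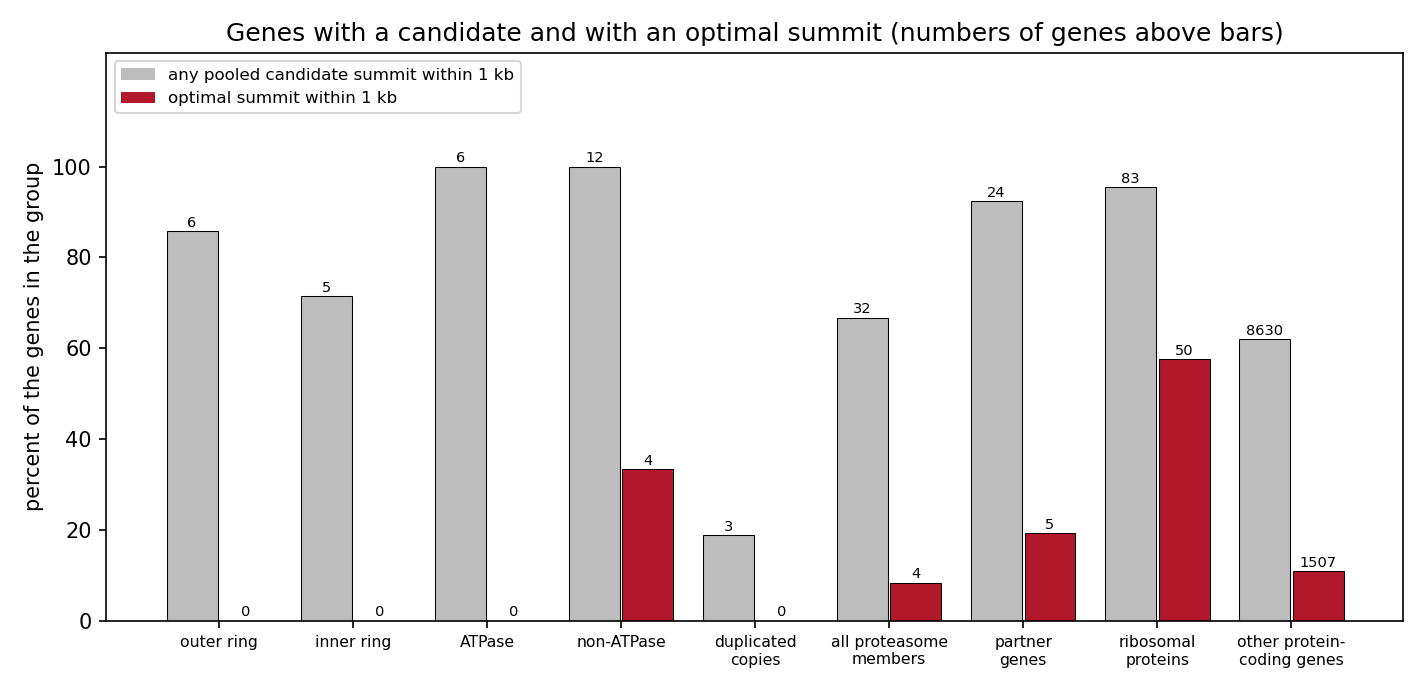
Bars give the percent of genes in each group with any pooled candidate summit (grey) and with an optimal summit (red) within 1 kb of a TSS, with the number of genes above each bar; the 4 subunit groups at the left leave out the duplicated copies. Red bars are at 0 for the outer ring, the inner ring, the ATPases and the duplicated copies, and at 4 genes for the non-ATPase subunits.

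The strongest peak at a member was at Rpn5, which encodes a lid subunit of the regulatory particle (FBgn0028690, 3R 5789093 to 5789502, in dm6 coordinates counted from 1). Its signal, the authors' own peak value used here to rank regions within a list, was 104.3 in the pooled list, at rank 1080 of 30000. The candidate ranked 898 in replicate 2 (signal 58.0, 1 bp from the pooled summit) and 1283 in replicate 3 (signal 50.4, 88 bp from it). That pooled signal was above the strongest candidate of 90.5% of the other genes with a candidate. The summit lay 195 bp upstream of the TSS of Rpn5 and 86 bp from that of Hat1 (histone acetyltransferase 1), in an intron of Hat1, so the nearer gene was the neighbour. Hat1 and Rpn5 are transcribed away from each other from TSSs 109 bp apart.

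Rpn3, which encodes another lid subunit (FBgn0261396, 2L 19051635 to 19052044), had a pooled signal of 85.2 at rank 1537. Its strongest candidate ranked 1689 in replicate 2 (signal 40.8) and 1088 in replicate 3 (signal 54.3). The 2 replicates placed the summit apart, 106 bp upstream of a TSS in replicate 2 and 66 bp downstream of it in replicate 3. No candidate of replicate 2 lay within 150 bp of the pooled summit. The pooled summit was 50 bp downstream of a TSS, in the 5′ UTR of Rpn3, and 228 bp from the TSS of the divergent gene l(2)37Bb. Rpn3 was the only member with an optimal peak whose own TSS was the nearest.

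The intergenic stretches of 4 head-to-head promoters are shown because they lie between the start sites that share each region: Rpn5 and Rpn3 with an optimal peak, and Rpt5 and Prosbeta3, the ATPase and inner ring genes with the strongest candidates, chosen after their values were seen. They were read from the Release 6 assembly of RefSeq, plus strand, and capitals mark matches to the 8 words described further on.
Rpn5 with Hat1, chr3R:5789385-5789492: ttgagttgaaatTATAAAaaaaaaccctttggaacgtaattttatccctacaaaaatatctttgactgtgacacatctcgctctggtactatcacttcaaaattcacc
Rpn3 with l(2)37Bb, chr2L:19051613-19051789: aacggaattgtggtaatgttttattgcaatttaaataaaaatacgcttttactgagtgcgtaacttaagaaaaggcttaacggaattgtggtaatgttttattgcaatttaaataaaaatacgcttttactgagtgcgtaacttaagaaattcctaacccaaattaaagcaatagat
Rpt5 with RanBP3, chr3R:23752835-23752875: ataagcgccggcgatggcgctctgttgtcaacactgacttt
Prosbeta3 with Iru, chr3R:9006227-9006455: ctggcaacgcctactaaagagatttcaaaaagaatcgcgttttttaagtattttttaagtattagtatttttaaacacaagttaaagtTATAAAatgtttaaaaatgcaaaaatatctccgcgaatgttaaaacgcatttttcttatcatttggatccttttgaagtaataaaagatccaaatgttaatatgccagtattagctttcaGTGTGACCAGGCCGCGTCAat

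The stretches differ in composition and length. GC content was 32.4% at Rpn5, 28.8% at Rpn3, 30.1% at Prosbeta3 and 53.7% at Rpt5, whose stretch of 41 bp is the shortest of the 4 and the only one that holds the summit itself. The stretch at Rpn3 contains an exact direct repeat of 72 bp, at its first base and again from base 79. At Prosbeta3, the capitals near the right end cover the core of Ohler motif 1 and 2 matches to the Cnc-Maf element, of which the first overlaps that core and the second overlaps only the first.

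Rpn13, which encodes a ubiquitin receptor of the regulatory particle (FBgn0033886, 2R 13960557 to 13960966), had a pooled signal of 98.8 at rank 1195. It ranked 1463 in replicate 2 (signal 44.1) and 1217 in replicate 3 (signal 51.8). The summit lay 358 bp upstream of the nearest of 3 TSSs of Rpn13 and 87 bp from the TSS of CtsL1, a cathepsin L gene, in whose 5′ UTR it fell. Rpn8, which encodes the partner of the deubiquitinase Rpn11 (FBgn0002787, 2R 24402453 to 24402862), had a pooled signal of 79.6 at rank 1747. Its rank was 3075 in replicate 2 (signal 29.4) and 1438 in replicate 3 (signal 47.4). The Rpn8 summit was 347 bp upstream of its nearest TSS and 22 bp from that of Slik, a Ste20-like kinase gene, again within the neighbour's 5′ UTR. All 4 peaks were therefore under the median signal of the optimal list, 104.6, and above its lowest value of 70.5. Rpn5, at 104.3, was only just under that median.

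Below the threshold there was a gap between the strongest candidates of the members. Beside its optimal peak, Rpn13 had another candidate that did not pass, with a signal of 57.0 at rank 3175. Among members without an optimal summit, the strongest candidate was at Rpn12, a lid subunit gene, in a coding exon 580 bp downstream of the TSS. It had a pooled signal of 48.9 at rank 4217. The nearer TSS was that of the neighbouring gene UQCR-C2, at 516 bp. The ranks of the Rpn12 candidate were far apart, 2249 in replicate 2 and 17452 in replicate 3. Rpn6, another lid subunit gene, followed with 47.6 at rank 4452 (the matching candidates ranked 7222 and 4829 in replicates 2 and 3). Rpn11, the deubiquitinase of the lid, had 46.5 at rank 4657 (13082 and 5542), 59 bp upstream of its TSS. Rpt5, an ATPase gene, had 42.9 at rank 5502, 28 bp upstream of its TSS and 14 bp from that of RanBP3, with a candidate at rank 2727 in replicate 3 and none within 150 bp of it in replicate 2. Prosalpha3, of the outer ring, had 41.6 at rank 5848 (9223 and 7130), 77 bp upstream of its TSS. On the distance scale, Prosbeta6 was just outside, with an optimal summit of signal 71.2 at 1142 bp from its TSS.

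**Figure D2:**
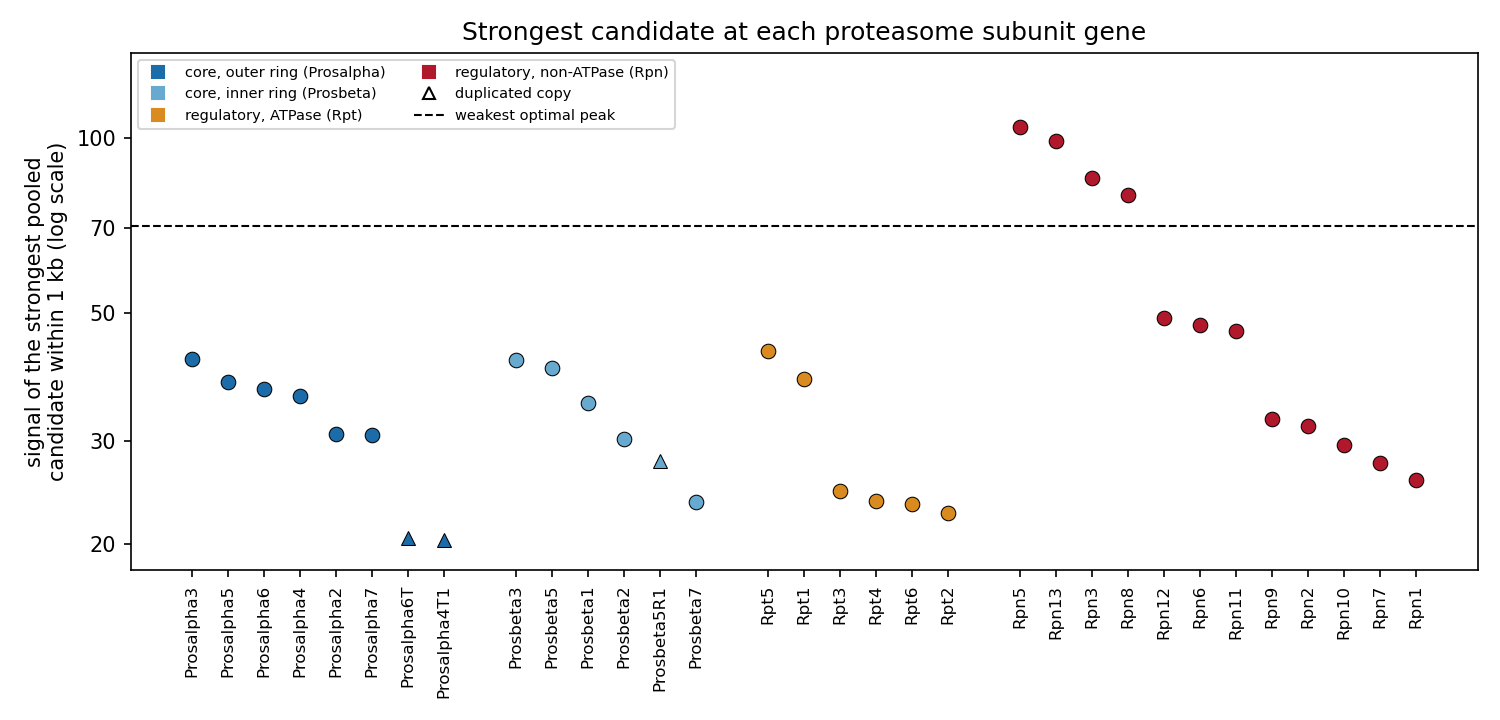
Each point is the signal of the strongest pooled candidate within 1 kb of a TSS of 1 member (vertical axis, log scale), ordered by signal within the 4 kinds of subunit; triangles are duplicated copies and the dashed line is the weakest optimal peak at 70.5. Rpn5, Rpn13, Rpn3 and Rpn8 lie above the line, and the next member, Rpn12, is at 48.9.

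Over the 28 members with a candidate only, pooled signals ran from 20.3 at Prosalpha4T1 to 48.9 at Rpn12. In the core particle they ran from 20.3 to 41.6, with Prosbeta3 (41.4) and Prosbeta5 (40.2), a catalytic subunit gene, highest in the inner ring. The catalytic genes Prosbeta1 and Prosbeta2 had 34.9 and 30.3. Among ATPases, Rpt1 had 38.4 and Rpt3, Rpt4, Rpt6 and Rpt2 lay between 22.5 and 24.6. The median of the strongest signal was 33.9 over the 32 members and 37.0 over the 8630 other genes with a candidate; 13 of 32 members were above the latter and 4 were above the upper quartile of 56.6. The members passed here only by having a candidate, so these medians describe a subset of the 48.

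Each replicate alone put the same Rpn genes highest, except Rpn8 in replicate 2. These genes were taken from a list thresholded on reproducibility between the same replicates, so this is not independent backing. Used alone, the strongest 2153 candidates of replicate 3 had a summit within 1 kb at 4 of the 29 members with any candidate in that replicate, the same 4 genes. The strongest 2153 of replicate 2 had it at 3 of 31, without Rpn8. The background was 18.2% of other genes in replicate 3 and 17.8% in replicate 2. A pooled summit had a candidate within 150 bp in both replicates at 15 of 32 members. It had one in a single replicate at 16, Rpn3 among them, and in neither at 1, Prosalpha6. The matching shares for other genes are not given here. Prosbeta4, which had no pooled candidate, had a weak one in each replicate list, at rank 13151 in replicate 2 and 13426 in replicate 3.

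**Figure D3:**
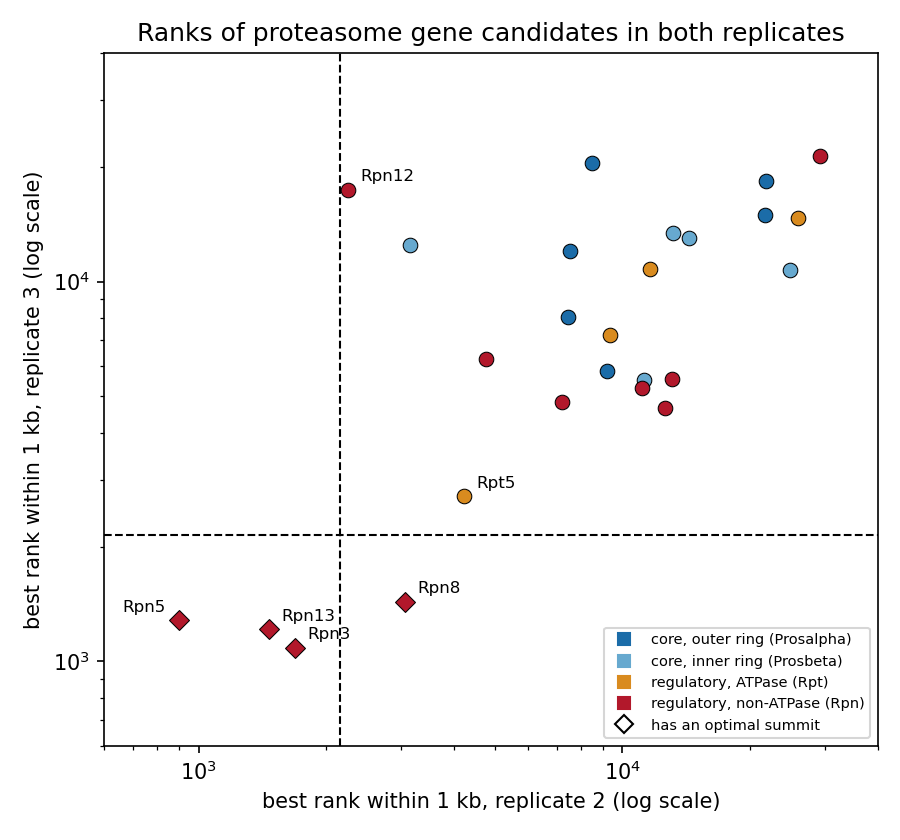
Each point is 1 of the 26 members with a candidate within 1 kb in both replicates, placed by its best rank in replicate 2 (horizontal) and replicate 3 (vertical), log scales; dashed lines mark rank 2153 and diamonds the members with an optimal summit. Rpn5, Rpn13 and Rpn3 are under 2153 in both, Rpn8 only in replicate 3, and Rpn12 is at 2249 in replicate 2 but 17452 in replicate 3.

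Promoters shared with a neighbour were frequent among proteasome genes and held all 4 peaks, beside 844 of the 1507 other genes with an optimal summit (56.0%). By annotation alone, 24 of 48 members had a protein-coding gene on the other strand that starts within 1 kb and points away from them, against 35.4% of other protein-coding genes. Without the duplicated copies it was 21 of 32 (65.6%). Seen from the summits, 22 of 32 members with a candidate (68.8%) had the TSS of another protein-coding gene within 1 kb of the strongest summit, against 47.8% of other genes with a candidate. Of members with such a head-to-head neighbour and a candidate, 4 of 19 had an optimal summit (21.1%), against 22.0% of other genes arranged in the same way. Of members with a candidate and no such neighbour, 0 of 13 had one, against 13.7%. In 3 of the 4 cases the summit was nearer to the neighbour's TSS and lay past it, inside the neighbouring gene. If each summit was given only to the protein-coding gene with the nearest TSS, 1 of 25 members with a candidate kept a peak, Rpn3, against 1108 of 7469 other genes (14.8%). Among members with a single TSS, 1 of 22 had an optimal summit (Rpn5), against 13.0% of other such genes.

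**Figure D4:**
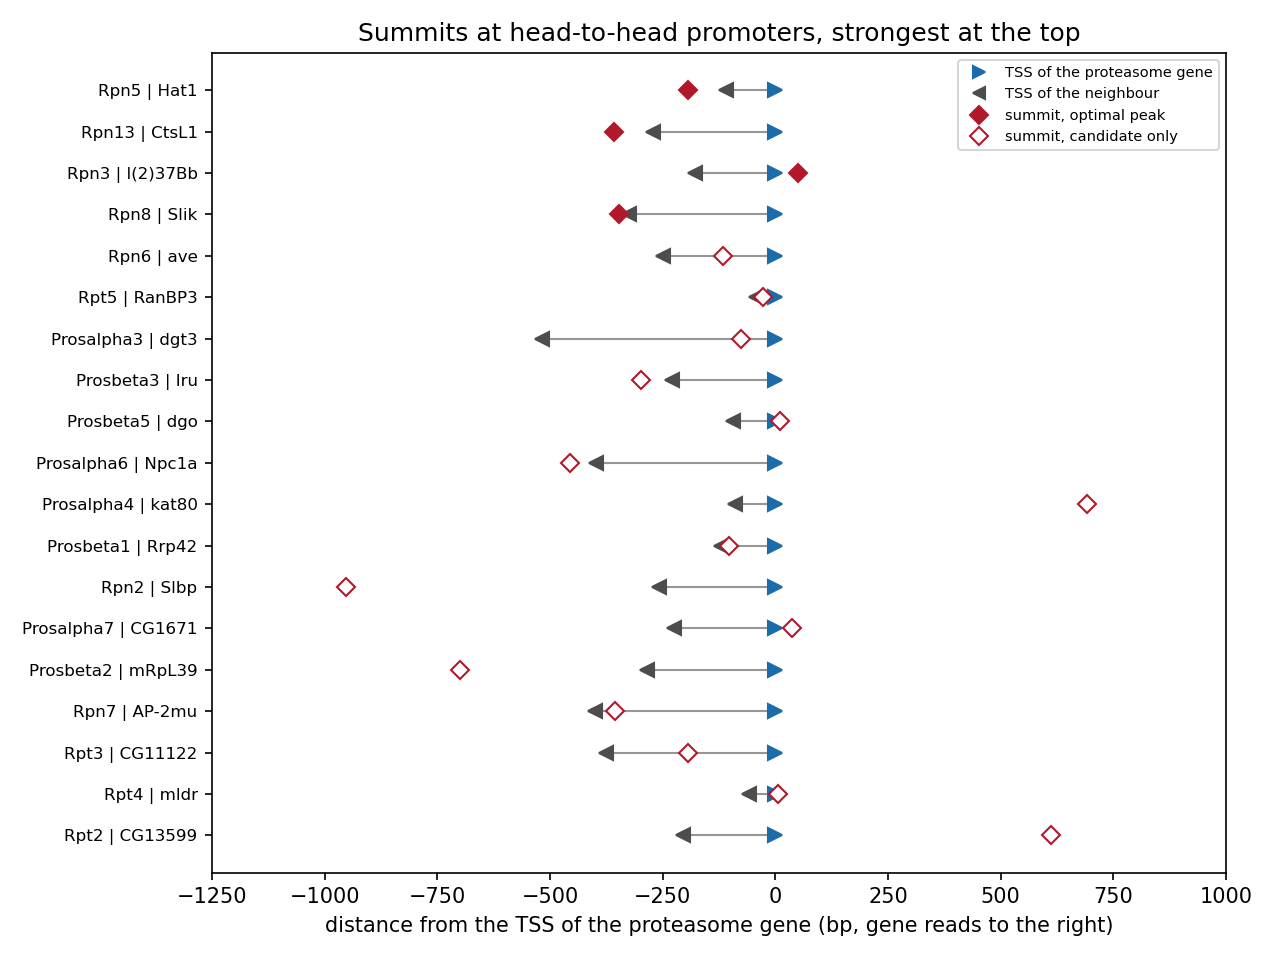
Each line is 1 of the 19 members with a candidate and a head-to-head neighbour, aligned at the TSS of the proteasome gene (blue, reading to the right); the grey triangle is the TSS of the neighbour and the diamond the strongest summit, filled for an optimal peak, in bp. At Rpn5, Rpn13 and Rpn8 the filled diamond lies left of the neighbour's TSS, 86, 87 and 22 bp from it, and at Rpn3 it lies 50 bp right of the member's TSS.

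Weak candidates at shared promoters had the same mixed positions. The candidate of Prosalpha6 lay 57 bp from the TSS of Npc1a (a sterol transport gene) and 456 bp from its own, and that of Rpn7 lay 44 bp from AP-2mu (a clathrin adaptor gene) and 357 bp from its own. The candidate of Prosbeta5 was 11 bp from its own TSS and 105 bp from that of dgo, and that of Rpt4 was 5 bp from its own and 63 bp from that of mldr. These pooled positions had limited replicate backing. Within 150 bp, Prosalpha6 had no candidate in either replicate, Rpn7 and Rpt4 only in replicate 2, and Prosbeta5 only in replicate 3. None of the 4 optimal summits was in a coding exon, 3 being in a 5′ UTR and 1 in an intron. Of the 28 candidate-only summits, 13 were in coding exons, that of Rpn12 among them, 7 in 5′ UTRs, 6 between genes and 2 in introns. This difference was not tested. Positions of all other optimal peaks and candidates are not given here, so it is not shown to be particular to proteasome genes. Mean GC content within 100 bp of the summit was 37.4% for the 4 and 45.9% for the 28, beside 38.6% for all optimal peaks and 47.0% for the other pooled candidates.

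Short words were searched on both strands in promoters from 250 bases before to 50 after the canonical TSS of each gene, and within 100 bp of summits. The DNA replication-related element (TATCGATA), bound by the factor DREF, was in 12 of 48 member promoters, against 8.89% of 13920 other promoters. Without the duplicated copies it was in 11 of 32 (34.4%). These were 6 core genes (Prosalpha3, Prosalpha5, Prosalpha6, Prosbeta1, Prosbeta2 and Prosbeta6) and 6 regulatory particle genes (Rpn3, Rpn7, Rpn9, Rpn12, Rpt5 and the copy Rpt3R), and 1 of the 12, Rpn3, had an optimal summit. The homeodomain core word TAATTA was in 5 member promoters (10.4%) against 2790 of the 13920 others, and in none of the promoters of the 4 members with a peak. The core of Ohler motif 1 (GGTCACAC) was in 6 (12.5%) against 7.51%, the Cnc-Maf element (TGACNNNGC) in 6 against 8.46%, and TATAAA in 18 (37.5%) against 45.3%. The words CAGCTG and GAGAGAG were in 2 member promoters each, against 17.9% and 6.19% of the others, and CACGTG in 0 against 4.27%. A match is a description of letters, not a binding site, and none of these shares was tested.

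Around the summits of the members with a peak, there were 5 matches: TAATTA and TATAAA at Rpn5, TATCGATA at Rpn3, and CAGCTG and TATAAA at Rpn8. The matches of interest for a homeodomain protein and for DREF are printed with 28 bases each, plus strand, the word in capitals.
Rpn5 summit, chr3R:5789209-5789236: tataaaaaaggTAATTAtatcattttgt
Rpn3 summit, chr2L:19051856-19051883: ccgtaaaacgTATCGATAaattgaaacg
The TAATTA at Rpn5 was 76 bp from the summit, and within 100 bp of their summits 12.9% of all optimal peaks and 8.88% of the other candidates held this word. The TATCGATA at Rpn3 was 29 bp from the summit and 60 bp upstream of the downstream TSS of the gene. It is not the match counted in the Rpn3 promoter above. That match lies upstream of the canonical TSS and farther than 100 bp from the summit. The match near the summit lies downstream of the canonical TSS, outside the promoter as searched. Within 100 bp of their summits, 2.83% of optimal peaks and 1.10% of other candidates held this word.

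Genes that work with the proteasome were also counted. Of 27 names in a list of ubiquitin and proteasome partners, 26 matched a gene, 24 of these had a candidate and 5 had an optimal summit (20.8%, beside the background of 17.5%). They were cnc, whose mammalian relatives drive proteasome gene expression (signal 109.8, rank 967), the ubiquitin fusion gene RpS27A (87.8), Ufd1, which encodes a cofactor of the segregase p97 (82.1), the ubiquitin ligase gene Ufd4 (76.6) and eff, a ubiquitin-conjugating enzyme gene (72.4). RpS27A also belongs to the ribosomal protein genes below. Ubc6, another conjugating enzyme gene, was just under the threshold at 70.2, rank 2177, and the p97 gene TER94 had only 19.5. For comparison with another large complex that all cells need, 50 of 83 cytoplasmic ribosomal protein genes with a candidate had an optimal summit (60.2%), with a median strongest signal of 92.1 against 33.9 at proteasome genes. This difference was not tested.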

How the data were processed

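Chromatin immunoprecipitation of btn-eGFP was done on embryos in 2 biological replicates. The deposited README files list alignments and another file of unstated kind as the source of each candidate list, and the 3 candidate lists as that of the optimal list. Aligner, peak caller and threshold were not stated there or in the labels. The signal column is the authors' peak value on an unstated scale. The authors also deposited a −log10 q-value per region, which has ties and was left aside, and a summit offset. Files in dm3 were not used. A summit is the region start plus this offset; 1 pooled summit outside its region was used as given. Gene models came from Ensembl release 115, and sequence from the RefSeq copy of the same assembly; promoters were taken around Ensembl canonical TSSs. Counts were made in Python 3.11.15, and the summit assignment was tested on simulated data. No gene set test was run and no p-values are given. Members and lists were chosen with earlier results of these data known. Members named in full were all with an optimal summit, then the 5 strongest others; further genes were chosen after their values were seen. Partner names matched by symbol (25) or synonym (1); Ecm29 matched none. Ribosomal protein genes were symbols starting RpL or RpS, without those ending in -like. Alternatives were other distances to the TSS, canonical TSSs, the nearest gene only, a higher signal threshold, each replicate alone, overlapping candidates, no duplicated copies and another background.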

Additional observations from a re-analysis of the deposited data

How the results depend on the processing

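The count of members with a peak was 4 or 5 under most alternatives, and 3 to 4 with either replicate left out. The core count stayed at 0 in all of them except a TSS within 2 kb, where it was 1 (Prosbeta6). With a TSS within 200 bp, members and regulatory particle genes with a peak fell to 2 (Rpn3 and Rpn5), of which 1 was shared with a neighbour. With only the nearest gene counted, all 3 of these counts were 1 and the ratio to other genes was 0.27. With optimal peaks at or above their median signal, the member, regulatory particle and shared counts and the ratio were 0, and 1 partner gene remained. By construction this keeps the stronger peaks, and all member peaks lie below that median, Rpn5 only narrowly (104.3 against 104.6). The ratio was otherwise between 0.542 (without replicate 3) and 0.852 (TSS within 500 bp), below 1 in every alternative run. Leaving out the duplicated copies and counting over all genes at once was not among these alternatives. There the share was higher in members, 12.5% against 10.8% of the others, so the direction depends on this choice. Partner genes with a peak numbered 4 to 6 with either replicate left out. No paired analysis was possible because there is 1 group. Depth is unknown, so a gene with no candidate is not shown to lack signal.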
